A study of Mus musculus with 16 samples.

Results

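The genes described here are the transcription factors Foxo1, Foxo3 and Foxo4 and 6 of their target genes, Pdk4, Txnip, Irs2, Sesn1, Sesn3 and Ccng2. They were taken by gene symbol, from a list made with earlier results of these data known, and all 9 were found among the 20056 symbols of the deposited table. Poly(A) RNA was sequenced from mesenchymal stem cells (MSCs) and osteoblasts (OBs) that had been sorted from mice. The mice were miR-9-1-deficient, made by CRISPR/Cas9 editing, or wild-type, and the study addressed the role of miR-9-1 in the marrow niche in which lymphocytes form. There were 4 deficient and 4 wild-type OB libraries and 4 deficient and 4 wild-type MSC libraries. The animal numbers are shared by the cell types, and a number is called a mouse here, although the labels do not say that 1 mouse gave both libraries. Deficient mice are lettered E to H and wild-type mice A to D. Strain, age, sex, sort gate and the exact edit are not stated in the labels, and neither is whether the deficient mice descend from 1 founder.

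FoxO factors are forkhead proteins that bind DNA in the nucleus when insulin or growth factor signalling is low. After insulin or IGF1 stimulation, PI3K signalling activates AKT, which phosphorylates them, and the phosphorylated proteins are held in the cytoplasm. The activity of the factors is thus set largely at the protein level. In the nucleus they switch on genes for fuel switching, stress defence, feedback on insulin signalling and growth arrest, and in bone they are known to act on osteoblast number and oxidative stress. Phosphorylation and protein were not measured here. Foxo3 and Foxo1 transcripts have been studied as targets of miR-9, which pairs through its seed with sites in the 3′ UTRs of messenger RNAs.

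The mature miR-9-5p made from the Mir9-1 locus is shown first, with its seed, bases 2 to 8, in capitals (RefSeq, GRCm38.p6, chr3:88215613-88215635, plus strand).
mmu-miR-9-5p: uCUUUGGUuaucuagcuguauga
Of the 9 genes, 5 held a seed match in their longest annotated 3′ UTR, with 1 site each, and 4 (Foxo4, Txnip, Irs2 and Ccng2) held none. The site of Foxo3 (chr10:42183349-42183356, minus strand, 2975 bases after the stop codon) was an 8mer, which pairs with the whole seed and has A opposite base 1. Foxo1 (chr3:52347048-52347054, plus strand) and Sesn1 (chr10:41907998-41908004, plus strand) had a 7mer-A1 site, which lacks the last seed pair. Pdk4 (chr6:5483624-5483630, minus strand) and Sesn3 (chr9:14329264-14329270, plus strand) had a 7mer-m8 site, which lacks the A. The sites are printed in DNA letters on the transcribed strand, from the GENCODE transcripts on GRCm38, with the match in capitals and 8 bases on either side.
Foxo3: taccttgtACCAAAGAtagagaag
Foxo1: ggagcagtCCAAAGAtgcccttc
Sesn1: gatttcctCCAAAGAgcaatctt
Pdk4: ttgtgtttACCAAAGgtctaagg
Sesn3: tatgccacACCAAAGtaaaatta
Over 21028 protein-coding genes, 20.25% had at least 1 such site and 4.12% had an 8mer. These shares are not matched for length, since the median 3′ UTR over those genes was 960.5 bases. The 9 genes here had 1066 (Sesn1) to 7395 (Sesn3) bases. Among 1419 genes whose longest 3′ UTR was 3500 to 5500 bases, near the 4490 bases of Foxo3, 12.54% had an 8mer. A match is a description of the sequence and not evidence of binding.

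The promoters of Txnip, Irs2 and Ccng2 are shown because each holds a short FoxO-type word close to the start site. The words searched on both strands of the 250 bases before and 50 bases after the RefSeq start were GTAAACA, the FoxO core site, which reads TGTTTAC on the other strand, and CAAAACAA, a form of the insulin response element, which reads TTGTTTTG there. They did not overlap each other in these promoters. Of 32851 promoters, 3.65% held the first word and 2.51% the second. The table matched 8 of the 9 genes with 9 promoters, and each word occurred in 2 of these 9. Txnip had GTAAACA 121 bases before its start, and Sesn1 had the same word on the other strand 22 bases after one of its starts. Ccng2 had CAAAACAA 16 bases before its start and Irs2 had it on the other strand 38 bases before. Each line gives the 250 bases before the start on the transcribed strand, RefSeq, GRCm38.p6, with the word in capitals (Txnip chr3:96557707-96557956, plus; Irs2 chr8:11008930-11009179, minus; Ccng2 chr5:93267323-93267572, plus; Sesn1 word with 10 bases on either side).
Txnip: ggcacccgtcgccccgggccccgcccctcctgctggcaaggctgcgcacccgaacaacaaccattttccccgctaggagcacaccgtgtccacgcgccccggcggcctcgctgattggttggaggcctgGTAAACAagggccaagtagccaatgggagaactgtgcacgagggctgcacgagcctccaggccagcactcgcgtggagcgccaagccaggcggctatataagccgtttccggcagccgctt
Irs2: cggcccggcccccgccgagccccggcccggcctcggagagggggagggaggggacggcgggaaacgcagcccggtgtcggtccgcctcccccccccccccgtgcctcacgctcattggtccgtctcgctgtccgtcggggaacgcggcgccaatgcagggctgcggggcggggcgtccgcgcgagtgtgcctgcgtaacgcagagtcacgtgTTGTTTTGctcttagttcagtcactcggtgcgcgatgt
Ccng2: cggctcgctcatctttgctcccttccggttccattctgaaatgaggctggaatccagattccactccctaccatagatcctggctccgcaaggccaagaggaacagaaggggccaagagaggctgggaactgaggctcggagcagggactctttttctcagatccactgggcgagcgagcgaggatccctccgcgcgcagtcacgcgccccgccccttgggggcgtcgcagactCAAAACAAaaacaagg
Sesn1: aaccttctacTGTTTACcagccttttg
Absence of a word from these windows says only that these letters are not there.

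Values are normalized counts, given as mean ± SD with n = 4 libraries per group. A log2 fold change is given with ± its standard error, computed on log2(value + 1), a scale that makes the changes of weakly expressed genes smaller. Each gene was tested with limma, its p-value was adjusted over all genes tested by the method of Benjamini and Hochberg, and it passed at an adjusted p under 0.05. Depth was 15543693 to 18962771 reads in the OB libraries and 10148197 to 14246986 in the MSC libraries, and all 9 genes passed the filter on low values in every comparison. The edited gene could not be checked in MSCs, where Mir9-1 had 0 reads in all 8 libraries, which allows up to 3.52 to 4.51 normalized counts by counting error alone. In OBs it had 3 reads in deficient F and 0 in deficient E, G and H, against 16 in wild-type B, 7 in A, 4 in D and 0 in C. These are reads of the gene in poly(A) RNA. Mature miR-9-5p was not measured, so its loss cannot be read from them. Mir9-3, another miR-9 gene, had 0 reads in all MSC libraries, and in OBs 3 in deficient F and 1 in wild-type A. Every OB library held both the female transcript Xist (3719.5 to 8053) and the Y-linked Ddx3y (649 to 1939), so an OB library may not be RNA of 1 mouse alone, and p-values in OBs may measure spread that is partly technical. In MSCs, deficient E and F and wild-type A were high in Ddx3y and low in Xist and the other 5 libraries were the reverse. Osteoblast markers did not mark the OB sort. Their sum was 100185 to 213020 in wild-type OBs and 648155 to 863732 in wild-type MSCs, while blood progenitor markers summed to 18542 to 21044 in wild-type OBs and 4000.4 to 5631 in wild-type MSCs.

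Of the 3 factors, Foxo3 was the one with separate groups in MSCs. Foxo3 (chromosome 10, 42181841 to 42276755, minus strand), a factor best known for stress resistance and quiescence, had 2572, 1525, 1830.03 and 2436 normalized counts in deficient MSCs E, F, G and H, against 1192, 1149.7, 1045 and 1337 in wild-type MSCs A, B, C and D. The lowest deficient library, F, lay above the highest wild-type one, D. The means were 2091 ± 496 in deficient and 1181 ± 121 in wild-type MSCs, a log2 fold change of 0.80 ± 0.18, which did not pass (adjusted p = 0.0555). Without deficient F the change was 0.94 and passed (adjusted p = 0.00398), and without deficient E it was 0.69 (adjusted p = 0.126). Over all genes, leaving out F raised the number passing in MSCs from 159 to 2261, and leaving out E lowered it to 11. The MSC results without F or without E given below for other genes come from these same fits. In OBs Foxo3 had 1560.4, 1191, 1432 and 1372 in deficient E, F, G and H, against 1255, 1360.45, 1214 and 1225 in wild-type A, B, C and D. These groups overlapped, with F below all 4 wild-type libraries, and the change of 0.13 ± 0.08 did not pass (adjusted p = 0.662).

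Foxo1 and Foxo4 showed no such separation. Foxo1 (chromosome 3, 52268336 to 52353221, plus strand), the main FoxO of insulin-controlled metabolism, had 2804, 2079, 2231 and 1864.5 in deficient MSCs E to H, against 1549, 2360.2, 1472 and 2612 in wild-type MSCs A to D. The wild-type libraries spread over almost the whole deficient range, and the log2 change was 0.20 ± 0.21 (adjusted p = 0.597). In OBs Foxo1 averaged 1129.7 ± 116 in deficient and 1107 ± 91.4 in wild-type libraries (0.03 ± 0.09, adjusted p = 0.948), and the sign turned without deficient E (-0.01), deficient G (-0.01) or wild-type C (-0.03). Foxo4 (chromosome X, 101254528 to 101260873, plus strand), the third widely expressed FoxO, averaged 898 ± 111 in deficient and 831 ± 43.9 in wild-type MSCs (0.10 ± 0.13, adjusted p = 0.668). In OBs it averaged 690.4 ± 50.8 in deficient and 632 ± 45.7 in wild-type libraries (0.13 ± 0.08, adjusted p = 0.659). Both pairs of groups overlapped. The plot of the 3 factors by library shows the raised Foxo3 values of deficient MSCs beside overlapping groups elsewhere between the genotypes.

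**Figure D1:**
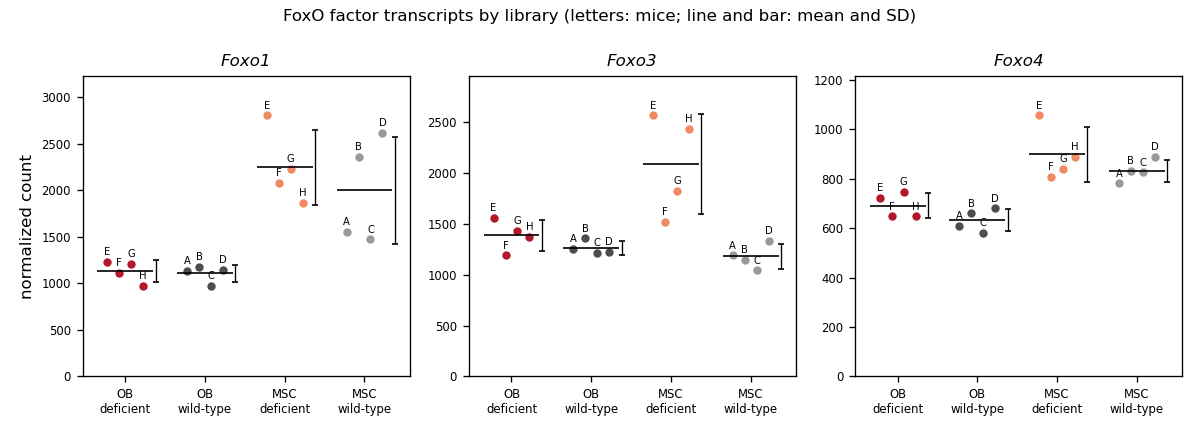
Normalized counts of Foxo1, Foxo3 and Foxo4 in each library, with the mouse letter at each point; lines and bars are mean and SD (n = 4 libraries per group). The 4 deficient MSC libraries of Foxo3 sit between 1525 and 2572, all above the wild-type MSC libraries, and the other genotype pairs overlap.

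Per kb of merged exon, the 3 factors were expressed at similar levels, so their balance can be compared. In counts per kb, Foxo3 stood at 276 ± 65.6, Foxo1 at 259 ± 46.4 and Foxo4 at 258 ± 31.8 in deficient MSCs, within 1 SD of each other. In wild-type MSCs the order was Foxo4 at 239 ± 12.6, Foxo1 at 231 ± 66.2 and Foxo3 at 156 ± 16.01, with the first pair within their spread and Foxo3 lowest by mean. Foxo3 therefore made up 35.1, 29.9, 32.7 and 40.6% of the summed per-kb level of the 3 factors in deficient MSCs E, F, G and H, against 28.1, 22.9, 25.4 and 24.1% in wild-type A, B, C and D. The ranges did not overlap. In OBs the Foxo3 share was 33.4 to 37.8% in deficient and 33.1 to 36.5% in wild-type libraries, which overlapped. Foxo6, the remaining mouse FoxO gene, was low, between 5.12 and 168 normalized counts, and its genotype groups overlapped in both cell types.

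**Figure D2:**
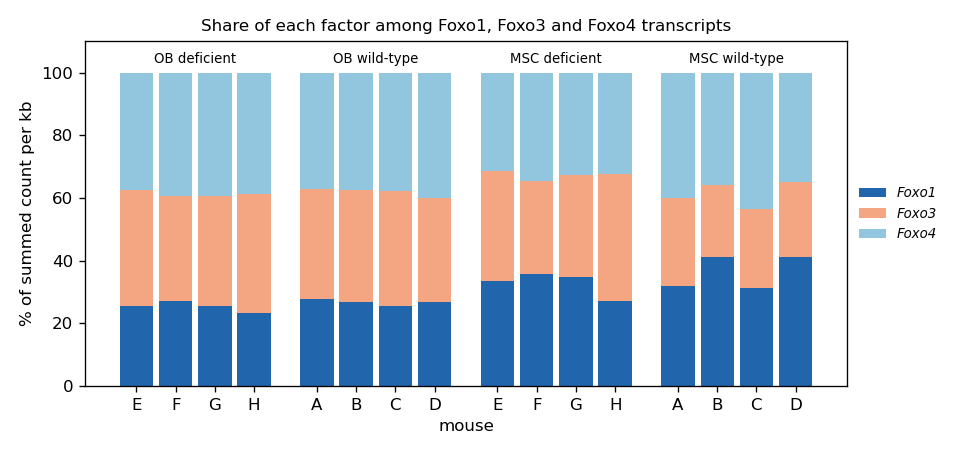
Share of Foxo1, Foxo3 and Foxo4 in their summed normalized count per kb (percent), 1 bar per library. The Foxo3 segment spans 29.9 to 40.6% in deficient MSCs, 22.9 to 28.1% in wild-type MSCs and 33.1 to 37.8% in the 8 OB libraries.

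Among the 6 targets, Txnip rose in deficient MSCs and Pdk4, Irs2 and Sesn1 were higher by mean without passing. Of the 9 genes, 1 passed as higher (Txnip), where 0.501% of the 14964 genes tested did, and none passed as lower, where 0.561% did. The deficient group lay wholly above the wild-type group for 4 of the 9 (Foxo3, Txnip, Irs2 and Sesn1), where 6.3% of genes did, and wholly below for none, where 6.1% did. The median log2 change of the 9 was 0.80, beside -0.03 over all genes tested, and 8 of the 9 were positive. The 9 genes were chosen with earlier results of these data known, so these shares are a description and not a test of the list. In bulk RNA a change in the cells that make up a sort and a change of RNA per cell cannot be told apart. Marker genes of other cell types differed between the same MSC libraries. The 8 osteoblast markers summed to 196318 to 498058 in deficient and 648155 to 863732 in wild-type MSCs, and 1 of the 8 passed as lower, the osteocalcin gene Bglap (-4.67 ± 0.57, adjusted p = 0.0167). Of the 8, 6 were negative and 2 positive. The marker Ibsp had 17681 to 47688 in deficient and 15871 to 28186 in wild-type MSCs. The 5 chondrocyte markers summed to 7727 to 30873 in deficient and 45324 to 326464 in wild-type MSCs, with none passing and all 5 negative. The blood progenitor markers summed to 3425 to 3770 in deficient and 4000.4 to 5631 in wild-type MSCs. None of these 8 genes passed, 7 were negative and 1 positive, and for 1 the deficient group lay wholly below. None of these 3 pairs of sums overlapped, and their part in the values of the 9 genes was not tested.

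Txnip (chromosome 3, 96557957 to 96561883, plus strand) encodes the thioredoxin-interacting protein, which binds thioredoxin and curbs glucose uptake. It had 31425, 10708, 28689.7 and 31521 normalized counts in deficient MSCs E, F, G and H, against 6283, 6069, 6436 and 3697 in wild-type MSCs A, B, C and D. Every deficient library was above every wild-type one, but F was far below the other 3. The log2 fold change was 2.10 ± 0.33 (adjusted p = 0.0268). The call was lost on leaving out any 1 library other than deficient F (changes of 1.91 to 2.17, adjusted p = 0.0523 to 0.0913), and without F the change was 2.48 (adjusted p = 0.000275). With the series of animal numbers (E and F with A and B, G with C, H with D) as a term in the fit, the change was 2.10 and the call was also lost (adjusted p = 0.0708). In OBs Txnip had 9952, 5975, 6936 and 5993 in deficient E, F, G and H, against 4170.1, 3977, 4379 and 3830.1 in wild-type A, B, C and D. The groups did not overlap, and the change of 0.79 ± 0.15 did not pass (adjusted p = 0.125). It passed without deficient E (0.62, adjusted p = 0.0298) and without deficient H (0.87, adjusted p = 0.0366). Over all genes, 20 passed in OBs without E and 108 without H, beside 4 with all libraries.

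Pdk4 (chromosome 6, 5483351 to 5496309, minus strand) encodes a kinase that shuts off pyruvate dehydrogenase and so spares glucose. It had 6617, 392, 2012 and 3235 in deficient MSCs E, F, G and H, against 323, 290.0, 446 and 255 in wild-type MSCs A, B, C and D. E, G and H were 6.12 to 20.1 times the wild-type mean, while F was 1.19 times and lay below wild-type C. The change of 2.65 ± 0.65 did not pass (adjusted p = 0.0698), passed without F (3.44, adjusted p = 0.000667), and was 2.08 without E (adjusted p = 0.156). In OBs Pdk4 had 1477, 269, 243 and 238 in deficient E, F, G and H, against 99.0, 116, 79.9 and 101 in wild-type A, B, C and D. All 4 deficient libraries were at least 2.41 times the wild-type mean and E was 14.9 times. The change of 1.98 ± 0.52 did not pass (adjusted p = 0.290), and without E it was 1.34 and passed (adjusted p = 0.0333).

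Irs2 (chromosome 8, 10984681 to 11008458, minus strand) encodes an adaptor through which insulin and IGF1 receptors reach PI3K, so that its induction by FoxO feeds back on the pathway. It had 9618, 4245, 6629 and 7474 in deficient MSCs E, F, G and H, against 3629, 3301, 3419.7 and 3426 in wild-type A, B, C and D. The groups did not overlap, F again being the lowest deficient library, and the change of 0.96 ± 0.21 did not pass (adjusted p = 0.0555). It passed without F (1.18, adjusted p = 0.00155) and was 0.79 without E (adjusted p = 0.113). In OBs Irs2 had 2972, 1508, 1217 and 1089 in deficient E, F, G and H, against 1049, 1098, 937 and 1062 in wild-type A, B, C and D. H lay within the wild-type range, so the groups overlapped, and the change was 0.59 ± 0.26 (adjusted p = 0.555) and 0.28 without E (adjusted p = 0.591).

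Sesn1 and Sesn3 encode sestrins, stress-induced proteins that restrain the growth kinase complex mTORC1. Sesn1 (chromosome 10, 41809935 to 41908424, plus strand) had 8547, 1056.8, 2265 and 3704 in deficient MSCs E, F, G and H, against 837, 1056.4, 815 and 827 in wild-type A, B, C and D. F exceeded wild-type B by less than 1 normalized count, so the groups touch rather than stand apart, and the change of 1.75 ± 0.48 did not pass (adjusted p = 0.0857). It passed without F (2.24, adjusted p = 0.00354) and was 1.235 without E (adjusted p = 0.154). In OBs Sesn1 had 2249, 795, 977 and 909 in deficient E, F, G and H, against 649, 645, 725 and 613 in wild-type A, B, C and D. The groups did not overlap, E was 3.42 times the wild-type mean, and the change was 0.77 ± 0.28 (adjusted p = 0.435) and 0.44 without E (adjusted p = 0.190). Sesn3 (chromosome 9, 14275067 to 14333101, plus strand) had 452, 599, 660.1 and 674 in deficient MSCs E, F, G and H, against 633, 508, 780.3 and 585 in wild-type A, B, C and D. It overlapped between genotypes and E was its lowest deficient library, the reverse of Sesn1. The change was -0.07 ± 0.18 in MSCs (adjusted p = 0.844), turning to 0.06 without E and 0.04 without wild-type C, and 0.12 ± 0.10 in OBs (adjusted p = 0.753), where means were 509 ± 33.6 in deficient and 472 ± 64.6 in wild-type libraries.

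Ccng2 (chromosome 5, 93267257 to 93276231, plus strand) encodes cyclin G2, which accompanies cell cycle arrest. It had 1621, 753, 1016 and 1381 in deficient MSCs E, F, G and H, against 926, 989, 889.7 and 784 in wild-type A, B, C and D. E, G and H were above all wild-type libraries and F was below them all, and the change was 0.35 ± 0.22 (adjusted p = 0.352). In OBs it had 1291, 1462, 1393 and 1294 in deficient E, F, G and H, against 1475, 1371, 1504 and 1481 in wild-type A, B, C and D. The groups overlapped (-0.10 ± 0.06, adjusted p = 0.652). The plot of the targets by library shows the wide spread of deficient MSCs for Pdk4, Sesn1 and Txnip.

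**Figure D3:**
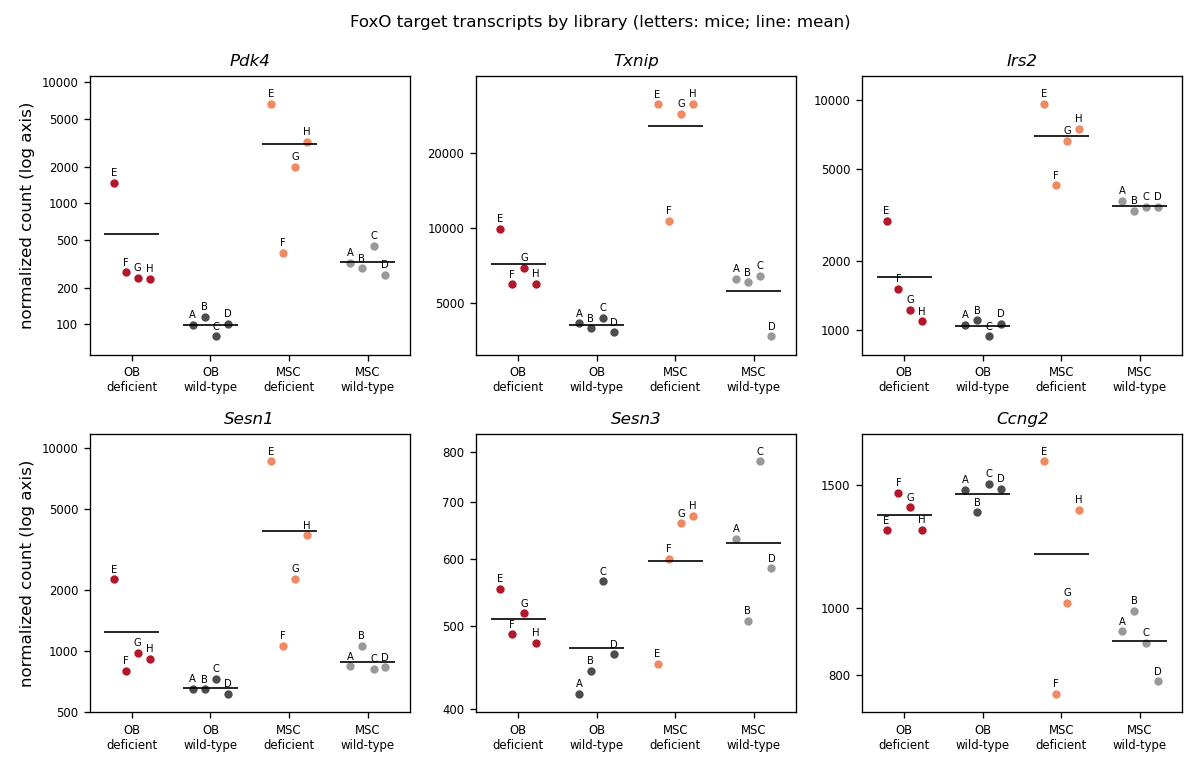
Normalized counts of the 6 target genes in each library on a log axis, with the mouse letter at each point and the group mean as a line. Deficient OB and deficient MSC libraries of Pdk4, Txnip and Sesn1 lie mostly above their wild-type groups, F is lowest among deficient MSCs for Txnip (10708) and Pdk4 (392), and Sesn3 and Ccng2 overlap.

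In OBs none of the 9 genes passed, where 0.0211% of 14229 genes passed as higher and 0.00703% as lower, and 4 of them had an unadjusted p under 0.05. The deficient group lay wholly above the wild-type group for 3 of the 9 (Pdk4, Txnip and Sesn1), where 2.47% of genes did, and wholly below for none, where 2.99% did. The median log2 change of the 9 was 0.13, beside -0.02 over all genes, and 8 were positive. The limit given for MSCs on the choice of the 9 genes holds here too. On the recovered reads, edgeR called none of the 9 in OBs and DESeq2 called 1, Txnip (0.85, adjusted p = 0.00973). In MSCs edgeR called 2, Txnip and Pdk4 (3.24, adjusted p = 0.0441), and DESeq2 called 5, Foxo3, Pdk4, Txnip, Irs2 and Sesn1. Over all genes edgeR called 4 in OBs and 147 in MSCs, and DESeq2 called 194 and 1196. Stromal marker sums were 20065, 39033, 8735 and 3357 in deficient OBs E, F, G and H, against 4139 to 8809 in wild-type OBs. All 8 stromal markers were read in every OB library. Osteoblast markers summed to 14229 to 68689 in deficient and 100185 to 213020 in wild-type OBs, and chondrocyte markers to 23149 to 61509 in deficient and 128547 to 347661 in wild-type OBs. Neither pair of sums overlapped, none of the 8 or of the 5 genes passed, and the part of these markers in the values of the 9 genes was not tested. Without E and F together, 3 of the 9 passed in OBs, Txnip (0.66, adjusted p = 0.00909), Pdk4 (1.29, adjusted p = 0.0322) and Sesn1 (0.52, adjusted p = 0.0412). That fit called 88 genes over all genes, beside 4 with all libraries. The plot of log2 changes sets the 2 cell types side by side.

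**Figure D4:**
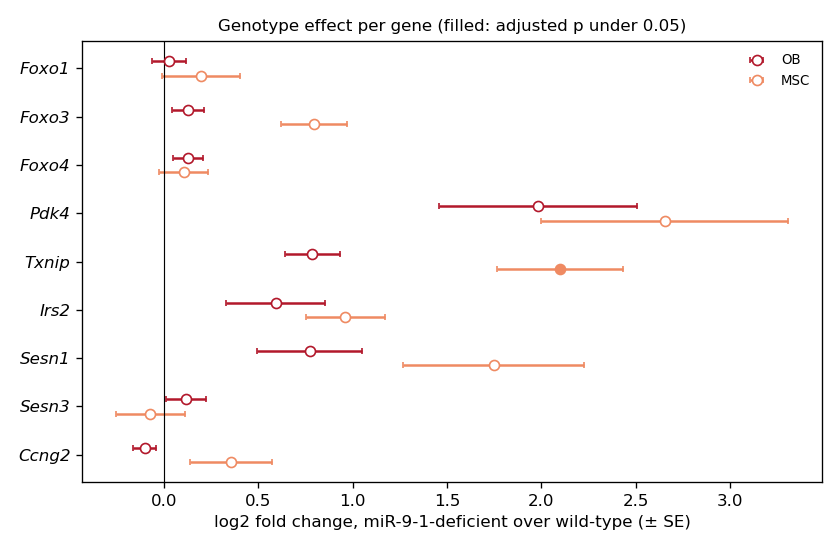
Log2 fold change, deficient over wild-type, with its standard error for each of the 9 genes, in OBs and in MSCs; a filled point passed at an adjusted p under 0.05. Txnip in MSCs (2.10 ± 0.33) is the filled point, and Pdk4 has the largest changes with the widest errors.

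A test of the OB genotype effect minus the MSC one passed for none of the 9 genes, where 0.00643% of 15556 genes passed as higher and 0.00643% as lower, and 2 of the 9 had an unadjusted p under 0.05. Those were Txnip (-1.31 ± 0.41, adjusted p = 0.291) and Foxo3 (-0.67 ± 0.20, adjusted p = 0.291). Without deficient MSC library F both passed (Txnip -1.69, adjusted p = 0.00702, and Foxo3 -0.81, adjusted p = 0.0226). Over all genes, 2 passed with all libraries and 0 to 571 on leaving out 1 library. For Pdk4 the difference was -0.67 ± 0.95 (adjusted p = 0.815), for Sesn1 -0.97 ± 0.63 (adjusted p = 0.565) and for Irs2 -0.37 ± 0.36 (adjusted p = 0.725). A difference between the cell types was thus not detectable for these genes with all libraries.

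Among the deficient mice, E stood highest for most of the 9 genes in both cell types. E was the highest deficient library for 7 of the 9 genes in MSCs (all but Txnip and Sesn3) and for 7 in OBs (all but Foxo4 and Ccng2). F was the lowest deficient library for 7 of the 9 in MSCs and for 3 in OBs, where H was lowest for 5. How often each mouse was highest or lowest over all genes was not counted. These counts can therefore not be read as particular to the 9 genes. For Pdk4, mouse E was 20.1 times the wild-type mean in MSCs and 14.9 times in OBs, while F was 1.19 times in MSCs and 2.72 times in OBs. For Sesn1, E was 9.67 times the wild-type mean in MSCs and 3.42 times in OBs. Skeletal muscle markers summed to 1459 in G and 5158 in H against 406 in E and 450 in F among deficient MSCs, and to 197 to 466 in wild-type MSCs. Without G and H none of the 9 passed (Txnip 1.74, adjusted p = 0.256). That fit called 0 genes over all genes, beside 159 with all libraries, so it says nothing particular to the 9. It also left only E and F, both high in Ddx3y, in the deficient group. The part of the muscle reads in these values was not tested.

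A list of 10 glucocorticoid-induced genes was summed per library, and mouse E had the highest deficient sum in both cell types. The list holds Fkbp5, a co-chaperone that restrains the glucocorticoid receptor, Tsc22d3 (GILZ), the metallothionein Mt2 and the transcription factors Klf15, Klf9 and Zbtb16. Pdk4 is also known to be induced by glucocorticoids. In MSCs 5 of the 10 passed as higher, where 0.501% of genes did, and none as lower, where 0.561% did. The 5 were Fkbp5 (2.82 ± 0.42), Mt2 (1.98 ± 0.34), Klf15 (3.63 ± 0.64), Zbtb16 (3.01 ± 0.54) and Tsc22d3 (1.39 ± 0.29), with adjusted p = 0.0253 to 0.0469. The list median was 1.21. The list was chosen with earlier results of these data known, so these counts are a description and not a test of the list. In OBs none of the 10 passed, where 0.0211% of genes passed as higher and 0.00703% as lower, all 10 were positive and the median was 0.69. Their summed level was 154375, 80909, 98185 and 95933 in deficient MSCs E, F, G and H, against 40986 to 64008 in wild-type MSCs. In OBs it was 46864, 23841, 20993 and 15444 in deficient E, F, G and H, against 14080.3 to 16952 in wild-type libraries. E was again highest in both cell types, and F lowest in MSCs. In OBs F came next after E, and H lay within the wild-type range, so the groups overlapped. Single genes could differ from the sum, as did Dusp1 of the same list in MSCs. Dusp1 had 15471, 16398, 16575 and 11605 in deficient MSCs E, F, G and H, against 10550 to 15543 in wild-type MSCs. The part of this list in the FoxO target values was not tested. The heat map by mouse sets both groups of genes side by side.

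**Figure D5:**
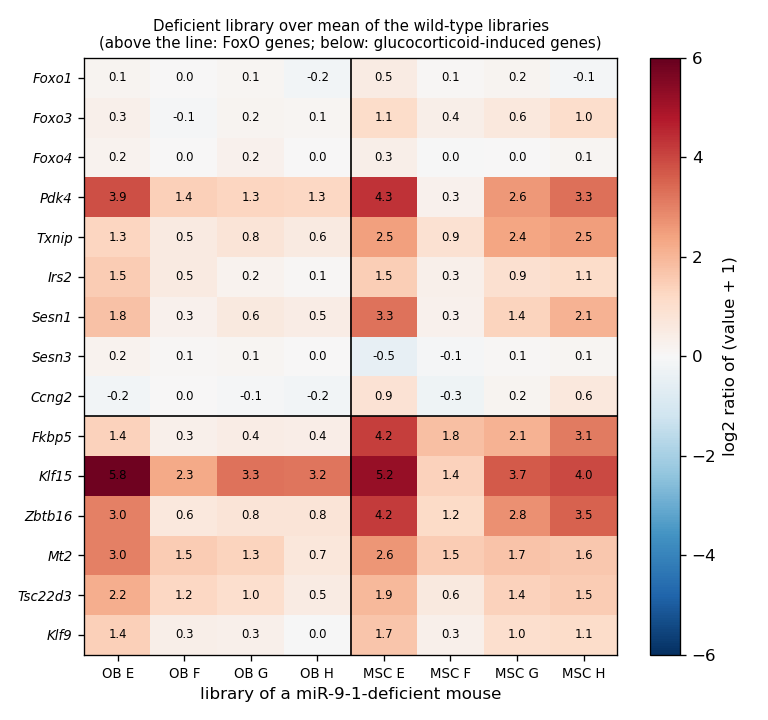
Log2 ratio of (value + 1) of each deficient library to (value + 1) of the mean of the wild-type libraries of its cell type, for the 9 FoxO genes (above the line) and 6 of the 10 glucocorticoid-induced genes (below). The columns of mouse E are the most strongly coloured in both cell types, and in MSCs the column of F is paler than those of G and H for Pdk4, Txnip, Irs2 and Sesn1.

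The other genes of the pathway were described by lists. Of 14 genes that carry insulin and growth factor signals to FoxO, none passed in MSCs or in OBs, and the median log2 changes were 0.26 in MSCs and 0.03 in OBs. Those with the smallest p in MSCs were the IGF1 receptor gene Igf1r, with 4937 ± 975 in deficient and 2907.5 ± 225 in wild-type MSCs (0.74 ± 0.16, adjusted p = 0.0516), and the PI3K subunit gene Pik3r1, with 6755 ± 1487 in deficient and 3781 ± 590 in wild-type MSCs (0.82 ± 0.18, adjusted p = 0.0555). Both had deficient groups wholly above the wild-type ones. This held for 5 of the 14 in MSCs, where 6.3% of genes did so, and the list was chosen with earlier results known. In OBs Pik3r1 (0.26 ± 0.07, adjusted p = 0.290) and the adaptor gene Irs1 (0.85 ± 0.37, adjusted p = 0.544) had the smallest p. Of 12 cofactors and modifying enzymes none passed in either cell type, and the deacetylase gene Sirt1 had the smallest p in both (MSCs 0.67 ± 0.16, adjusted p = 0.0634; OBs 0.34 ± 0.11, adjusted p = 0.399). In MSCs the deficient group lay wholly above for 3 of the 12, beside the same 6.3% of genes.

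Among further FoxO targets, 1 gene passed between genotypes, and it passed in MSCs. Of 11 tested cell cycle and death genes none passed in either cell type, with medians of 0.28 in MSCs and 0.06 in OBs. The cell cycle inhibitor gene Cdkn1a had 7195 ± 1187 in deficient and 4847 ± 649 in wild-type MSCs (0.57 ± 0.16, adjusted p = 0.0870). It was the 1 of the 11 with its deficient group wholly above in MSCs, where 6.3% of genes did so. Rbl2, a retinoblastoma relative, changed by 0.75 ± 0.28 in MSCs (adjusted p = 0.157) and 0.44 ± 0.15 in OBs (adjusted p = 0.404). Of 9 oxidative defence and autophagy genes tested, none passed in either cell type. Among them the autophagy gene Gabarapl1 was at 0.94 ± 0.27 in MSCs (adjusted p = 0.0892), and catalase, Cat, an antioxidant enzyme, at -0.52 ± 0.19 (adjusted p = 0.141). Of 5 metabolic targets tested in MSCs and 4 in OBs none passed, the lipase gene Pnpla2 having the smallest p in MSCs (1.03 ± 0.42, adjusted p = 0.179). Of 6 lymphocyte targets tested in MSCs, 1 passed as lower, where 0.561% of all genes tested did. It was the recombinase gene Rag1, at 4.08 ± 5.07 in deficient and 114 ± 32.2 in wild-type MSCs (-5.22 ± 0.88, adjusted p = 0.0285). Rag1 is made by developing lymphocytes, and most markers of the B lineage also had lower values in deficient MSCs. Of 9 B-lineage markers tested in MSCs, 2 passed as lower, beside the same 0.561% of all genes. These were Vpreb3 (-4.58 ± 0.88, adjusted p = 0.0410) and Cd79b (-1.67 ± 0.30, adjusted p = 0.0373). For 7 of the 9 the deficient group lay wholly below the wild-type one, where 6.1% of genes did, and the median log2 change was -1.63. The mean log2 level of the 10 markers was 4.33 to 5.10 in deficient and 6.22 to 7.11 in wild-type MSCs. Their summed level overlapped, at 2116 to 3592 in deficient and 2721 to 3337 in wild-type MSCs, and included Ebf1, a factor of B cells and stromal cells, at 1811 to 3231 in deficient and 1447 to 2344 in wild-type MSCs. The part of these cells in the Rag1 value was not tested.

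Between the wild-type cell types, most of the 9 genes were lower in OBs. Of the 9, 1 was higher, where 34.4% of 14696 genes passed as higher, and 7 were lower, where 35.5% did. Groups did not overlap for Ccng2 as higher, where 32.6% of genes did not, and for 5 as lower, where 32.9% did not. Irs2 and Pdk4 had the largest decreases of the 9. Irs2 was at 1036.5 ± 69.3 in OBs and 3444 ± 136 in MSCs (-1.73 ± 0.07, adjusted p = 1.2e-08). Pdk4 was at 98.8 ± 14.7 in OBs and 329 ± 82.7 in MSCs (-1.70 ± 0.21, adjusted p = 2.54e-05). Foxo1 was at 1107 ± 91.4 in OBs and 1998 ± 574 in MSCs (-0.81 ± 0.18, adjusted p = 0.00178).

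Smaller decreases were those of Sesn1 (-0.42 ± 0.10, adjusted p = 0.00429), Foxo4 (-0.40 ± 0.09, adjusted p = 0.00192), Txnip (-0.43 ± 0.16, adjusted p = 0.0314) and Sesn3 (-0.40 ± 0.15, adjusted p = 0.0294). The Txnip call was lost without MSC library A, B or C or OB library A, B or D (-0.35 to -0.44, adjusted p = 0.0546 to 0.0887). The Sesn3 call was lost without MSC library A or C or OB library A, B or D (-0.29 to -0.39, adjusted p = 0.0586 to 0.0825). Ccng2 was higher, at 1458 ± 59.4 in OBs and 897 ± 85.7 in MSCs (0.70 ± 0.09, adjusted p = 2.63e-05). Foxo3 had 1263.5 ± 67.0 in OBs and 1181 ± 121 in MSCs and did not pass (0.10 ± 0.09, adjusted p = 0.323). Quantile normalization moved the median over all genes by 0.16, and with it Foxo3 passed (0.21, adjusted p = 0.0426) and Txnip did not (-0.09, adjusted p = 0.619). The blood progenitor and osteoblast marker sums given above differed between these same libraries, and their part in these values was not tested.

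Per kb of merged exon, levels can be set side by side between genes. Txnip was highest in all 4 groups, at 2309.9 ± 602 counts per kb in deficient OBs, 1309 ± 76.3 in wild-type OBs, 8193 ± 3204 in deficient MSCs and 1800.0 ± 414 in wild-type MSCs. In wild-type OBs the next were Ccng2 (267 ± 10.9), Foxo4 (181 ± 13.1) and Foxo3 (167 ± 8.85), then Sesn1 (165 ± 11.9) and Irs2 (164 ± 11.0). These last 3 were within their spread of each other. Foxo1 (128 ± 10.5), Sesn3 (30.9 ± 4.23) and Pdk4 (28.1 ± 4.19) were below, the last pair not differing beyond their spread. In wild-type MSCs Irs2 was second (545 ± 21.5), Foxo4 (239 ± 12.6), Foxo1 (231 ± 66.2) and Sesn1 (222 ± 29.0) followed within their spread of each other, then Ccng2 (164 ± 15.7) and Foxo3 (156 ± 16.01), also within theirs, Pdk4 (93.6 ± 23.6) and Sesn3 (41.0 ± 7.53). In deficient MSCs Pdk4 stood at 873 ± 752 counts per kb, with libraries from 111.6 to 1885, so its place in the order differed between mice.

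Over the 16 libraries, the genes most like Foxo3 by Pearson correlation of log2 values, among 12570 candidates, were Kdm3a (r = 0.96), Ptbp2 (0.94) and Med14 (0.93). Those most like Foxo1 were Atf4 (0.96), Six4 (0.95) and Rcan1 (0.95), and those most like Foxo4 were Yes1 (0.95), Rell1 (0.95) and Agap3 (0.94). Those most like Pdk4 were Fmo2, Gab1 and Rbl2 (0.97 each), Rbl2 being the FoxO target named above. These are descriptions over libraries that share cell type, mouse and depth.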

How the data were processed

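Poly(A) RNA-seq libraries of sorted MSCs and OBs gave 16 libraries in 4 groups of 4. The authors deposited 1 signal value for each gene symbol and library, a normalized count made with DESeq2 1.24.0 on the mm10 build, per the submitters' processing notes. Aligner, counting program and annotation: not given in the sources used here. Multiplying back by 1 size factor per library (0.665 to 0.852 in MSCs, 1.27 to 1.54 in OBs) made 100% of values whole within 0.01, so whole reads were recovered. A library with 0 reads allows up to 3 reads (95% confidence, counting error only).

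Log2(normalized count + 1) was fitted in limma 3.58.1 (trended empirical Bayes, R 4.3.3), keeping genes that reached 10 in 4 or more libraries, within each comparison (8 libraries, or 16 for the difference of effects). On recovered reads, edgeR 4.0.16 (quasi-likelihood, TMM) called 4 genes between OB genotypes, 147 between MSC genotypes, 10202 for wild-type OBs against MSCs and 1 for the difference. DESeq2 1.42.0 called 194, 1196, 10437 and 127 in that order, and limma 4, 159, 10271 and 2. The code was tested on simulated data. Other alternatives were quantile normalization, a filter of 50 or none, a pseudocount of 5, the series of animal numbers as a term, the replicate block, and leaving out libraries.

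The members and gene lists were chosen with earlier results of these data known. All 9 members are named; of each other FoxO list and the glucocorticoid list, up to 4 passing genes per direction, or the 2 with the smallest p, and not all are described. Likeness used genes with a mean of at least 50. Labels do not say that a number marks 1 mouse in both cell types; deviations of same-numbered libraries correlated with r from 0.0241 to 0.285, over 0.1 for 3 of 8, so the fits without the block are the main ones. Exon lengths and UTRs are from GENCODE on GRCm38 and miRNA and promoter sequences from RefSeq GRCm38.p6.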

Additional observations from a re-analysis of the deposited data

Results flagged for a closer look

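Within groups of 4 libraries, a value was singled out where its gap to the nearest other library, divided by the range of the group, exceeded Dixon's 95% critical value for 4 samples. Over 204 groups of 51 genes, 19 values were singled out. For normally distributed values, chance alone singles out about 1 in 20 groups. The values used here were not log-transformed, many of the genes were named for a small p in these libraries, and genes of 1 mouse can vary together. The 19 are therefore a description and cannot be set against that rate. Mouse E gave 12 of the 19.

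Of the 9 FoxO genes, 5 values stood apart. Pdk4 had 1477 normalized counts in deficient OB library E, against 238 to 269 in the other 3. Sesn1 had 2249 in deficient OB library E, against 795 to 977. Txnip had 10708 in deficient MSC library F, the lowest of its group, against 28689.7 to 31521. Txnip also had a low value of 3697 in wild-type MSC library D, against 6069 to 6436. Sesn1 had 1056.4 in wild-type MSC library B, against 815 to 837, which is the library that deficient F barely exceeded.

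In deficient OB library E, values above the other 3 were those of Cdkn1a (4936), Gabarapl1 (2790.2), Fbxo32 (1126), Lpin1 (843), Fkbp5 (2468), Klf15 (788), Zbtb16 (1027) and Klf9 (4913). In deficient MSC library E they were those of Sgk1 (27231) and Mt2 (28461). The remaining ones were Rictor in deficient OB library F (1669, low), Cpt1a in wild-type OB library C (3805), and Sirt1 (2169.8) and Gadd45b (9248) in wild-type MSC library B.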

How the results depend on the processing

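None of the 9 genes lay near the floor of 3 reads. Over 629 alternatives of the 36 member results, 578 kept direction and call, 19 gained a call, 21 lost one and 11 turned sign. Pdk4 has no adjusted p from DESeq2 in OBs and was left out there. The cause of the changes below was not tested.

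Of the 9 FoxO genes, 1 passed in MSCs. With edgeR it was 2, with DESeq2 5, with the animal-number series as a term 0 (Txnip 2.10, adjusted p = 0.0708), without deficient G and H 0, and 0 to 5 on leaving out 1 library, the 5 being without deficient F. In OBs none passed, against 1 with DESeq2, 3 without deficient E and F, and 0 to 2 on leaving out 1 library. For the difference of effects none passed, and 0 to 2 did on leaving out 1 library. Of all genes 159 passed in MSCs (75 higher), against 1196 with DESeq2 (688 higher), 147 with edgeR (87 higher), 8 with the number series, 0 without G and H (1942 at an unadjusted p under 0.05), and 0 to 2261 on leaving out 1 library. In OBs 4 passed (3 higher), against 16 with quantile normalization (9 higher), 194 with DESeq2 (114 higher), 9 with the number series, 88 without E and F and 3 to 108 on leaving out 1 library. For the difference of effects 2 passed (1 higher), against 0 with a pseudocount of 5 (1833 at an unadjusted p under 0.05), 4 with no filter, 1 with a filter of 50, 1 with edgeR, 3 with quantile normalization (1 higher), 127 with DESeq2 (51 higher) and 0 to 571 on leaving out 1 library.

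Results that turned sign were all close to 0: Sesn3 in MSCs (0.041 without wild-type C and 0.057 without deficient E, in a range of -0.166 to 0.057 on leaving out 1 library), Foxo1 in OBs (-0.027 without E and F, -0.0059 without deficient G, -0.014 without deficient E and -0.033 without wild-type C, in a range of -0.033 to 0.097), and Foxo4 in the difference of effects (-0.0095 without MSC wild-type D, -0.025 without MSC deficient F, -0.0072 without MSC deficient G, -0.017 without OB wild-type C and -0.015 without OB deficient G, in a range of -0.025 to 0.103).

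With the mouse as a replicate block, 10216 genes and 8 of the 9 passed between cell types, beside 10271 and 8 without it, and 3 genes and none of the 9 passed for the difference of effects. The block changed no call of a member. Same-numbered libraries correlated best with their own number for 7 of 8 mice, a hint from the data and not from the design.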
